A study of Mus musculus with 6 samples.

Results

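The replication fork genes described here are 45 genes chosen by name among the 29626 genes of the deposited count table. They encode the DNA polymerases and primase, the sliding clamp and its loaders, the single-strand binding protein RPA, and the partners of the replicative helicase. Fork protection, origin firing and origin recognition proteins and the maintenance of DNA methylation complete the set. All 45 were found in the table, and 44 passed the filter on low counts. Fen1 did not pass it. RNA was counted in CD4+CD8+ double-positive thymocytes sorted by flow cytometry from 8-week-old mice. In the KANSL1-deficient group, 3 mice (labelled Kansl1fl/fl CD4-Cre) carried floxed Kansl1 and Cre under the control of Cd4. The control group held 3 littermates (Kansl1fl/fl) with the same floxed gene and no Cre, so Cre activity and Kansl1 loss cannot be told apart. Each library is 1 numbered mouse.

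DNA replication starts at origins that the origin recognition complex (ORC) binds and on which the MCM helicase is loaded. The kinase CDC7 with its activator DBF4, and cyclin-dependent kinases acting through TICRR, turn the loaded helicase into the active form by adding CDC45 and the GINS complex. At the fork, polymerase alpha with primase lays down primers, polymerase epsilon extends the leading strand and polymerase delta the lagging strand, both held by the clamp PCNA. Many of these genes are transcribed under E2F factors as cells enter S phase. In the thymus, double-positive cells arise from a burst of division of immature thymocytes, after which most stop dividing while they rearrange the T cell receptor alpha gene.

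Promoter sequences were taken from RefSeq (GRCm38.p6), from 250 bases before to 50 bases after each annotated start, for the 36 of 45 members in that table. Each window was searched on both strands for 4 words of the E2F type (TTTCCCGC, TTTCGCGC, TTTGCCGC and TTTGGCGC). The 36 members had 48 windows, and a gene was counted if any of its windows held a word. Of the 36 members, 12 (33.3%) held at least 1 such word, against 704 of all 27025 genes in the table (2.60%). Among the 12 members with a window whose transcripts rose in the comparison below, 6 held a word, and among the other 24 members 6 did. A match of letters is a description and not a binding site. The windows of 4 genes that rose and of Rfc3, which did not pass the threshold and held 2 words, are shown because they carry these words. Capitals mark the word, which reads in reverse complement where it lies on the opposite strand.
Clspn (claspin), chr4:126556730-126557029, plus strand: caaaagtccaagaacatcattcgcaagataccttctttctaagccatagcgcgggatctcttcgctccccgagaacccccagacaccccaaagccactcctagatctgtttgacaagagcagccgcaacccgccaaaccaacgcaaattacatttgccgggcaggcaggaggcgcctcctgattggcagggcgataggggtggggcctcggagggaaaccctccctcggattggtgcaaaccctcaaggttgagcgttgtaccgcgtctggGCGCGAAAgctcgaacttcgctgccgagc
Uhrf1, chr17:56304063-56304362, plus strand: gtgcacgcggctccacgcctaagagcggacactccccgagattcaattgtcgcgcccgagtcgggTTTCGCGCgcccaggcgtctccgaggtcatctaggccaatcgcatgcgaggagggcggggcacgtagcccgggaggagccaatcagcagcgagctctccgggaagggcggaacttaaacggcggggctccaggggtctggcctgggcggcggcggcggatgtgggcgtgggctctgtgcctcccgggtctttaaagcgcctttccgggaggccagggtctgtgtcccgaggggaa
Pola1, chrX:93632106-93632405, minus strand: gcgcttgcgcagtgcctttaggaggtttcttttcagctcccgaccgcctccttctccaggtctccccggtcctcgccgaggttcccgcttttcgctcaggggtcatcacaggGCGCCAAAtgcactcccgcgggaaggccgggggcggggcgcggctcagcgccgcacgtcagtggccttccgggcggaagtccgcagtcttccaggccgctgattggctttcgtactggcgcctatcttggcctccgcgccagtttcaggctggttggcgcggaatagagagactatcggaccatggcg
Pold3, chr7:100121453-100121752, minus strand: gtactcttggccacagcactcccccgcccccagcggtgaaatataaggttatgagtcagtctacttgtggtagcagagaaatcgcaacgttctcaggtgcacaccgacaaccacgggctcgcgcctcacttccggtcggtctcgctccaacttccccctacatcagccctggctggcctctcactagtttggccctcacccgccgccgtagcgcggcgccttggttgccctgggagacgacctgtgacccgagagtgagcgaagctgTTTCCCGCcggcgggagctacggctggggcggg
Rfc3, chr5:151651159-151651458, minus strand: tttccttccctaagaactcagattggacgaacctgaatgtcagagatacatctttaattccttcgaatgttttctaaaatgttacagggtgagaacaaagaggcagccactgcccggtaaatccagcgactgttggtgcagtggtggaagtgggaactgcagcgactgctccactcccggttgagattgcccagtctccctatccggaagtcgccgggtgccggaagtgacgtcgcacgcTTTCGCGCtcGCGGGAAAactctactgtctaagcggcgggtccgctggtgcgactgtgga
Counting the first transcribed base as 1, the word began at base 22 in Clspn, 18 in Pold3, -138 in Pola1 and -185 in Uhrf1. The window of the other annotated Uhrf1 start (chr17:56303087-56303386) held no such word and is not shown. In Rfc3 the words covered bases -10 to -3 and 1 to 8. The word CCAAT, also read on both strands, was present in 19 of the 36 members (52.8%) and in 41.1% of all genes of the table. TTTGAA was present in 7 of 36 (19.4%) and in 20.2% of all genes.

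Counts per library lay between 19361968 and 22459830. The libraries expressed Cd4 (2237 to 2587 CPM in KANSL1-deficient and 1787 to 2237 CPM in control libraries) and Cd8a, as their label states. The values below are TMM-scaled CPM, counts relative to library size. The targeted gene, Kansl1, had 146, 168 and 188 CPM in KANSL1-deficient libraries, against 214, 189 and 230 CPM in control libraries. The groups did not overlap, but the log2 fold change (-0.33 ± 0.14, SE) missed the threshold of 0.05 (adjusted p = 0.171, edgeR's quasi-likelihood test with Benjamini-Hochberg adjustment). Summed over the whole gene, Kansl1 counts check the labels weakly. Over all 15353 genes tested, 1038 passed (6.76%), of which 56.9% were higher in KANSL1-deficient cells. Scaling by library totals moved the median log2 fold change of all genes to -0.17, from -0.02 with TMM, and the higher share to 27.7%, so directions below hold on the TMM scale.

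Of the 44 tested fork genes, 14 rose in KANSL1-deficient double-positive cells, which is 31.8% of them against 3.85% of all tested genes. None fell with edgeR, DESeq2 or limma (1 had a negative change with an unadjusted p under 0.05 in edgeR), against 2.91% of all tested genes. The genes that rose did so by 1.56-fold to 2.91-fold, and they came from 8 of the 11 role groups. The median log2 fold change of the 44 genes was 0.51, beside -0.02 for all tested genes, and 37 of them had a positive value. The KANSL1-deficient and control libraries did not overlap for 25 of the 44 members, 24 of them higher in KANSL1-deficient cells. All tested genes had no overlap in 28.5% of cases, and no overlap with KANSL1-deficient above control in 14.6%. The count of 14 changed with the library left out: it was 6, 0 and 5 without KANSL1-deficient replicate 1, 2 and 3, and 16, 4 and 7 without control replicate 1, 2 and 3. Of the 16016 to 16236 genes tested in these fits, 197, 169 and 345 rose without KANSL1-deficient replicate 1, 2 and 3. Without control replicate 1, 2 and 3 the genes that rose were 430, 195 and 447, and 86 to 381 fell over these fits. The median of the members moved only between 0.49 and 0.56 in these fits. Without KANSL1-deficient replicate 2 there were 23 members with an unadjusted p under 0.05, each with a positive log2 fold change. The same count over all tested genes was not made, so the 23 have no share beside them. With DESeq2, 18 members rose, 13 of them among the 14, while of all 15353 tested genes 1090 rose and 950 fell. With library totals 9 members rose, beside 367 of all tested genes that rose and 959 that fell. With limma on log2(FPKM + 1) 6 members rose, beside 300 of all tested genes that rose and 653 that fell.

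**Figure D1:**
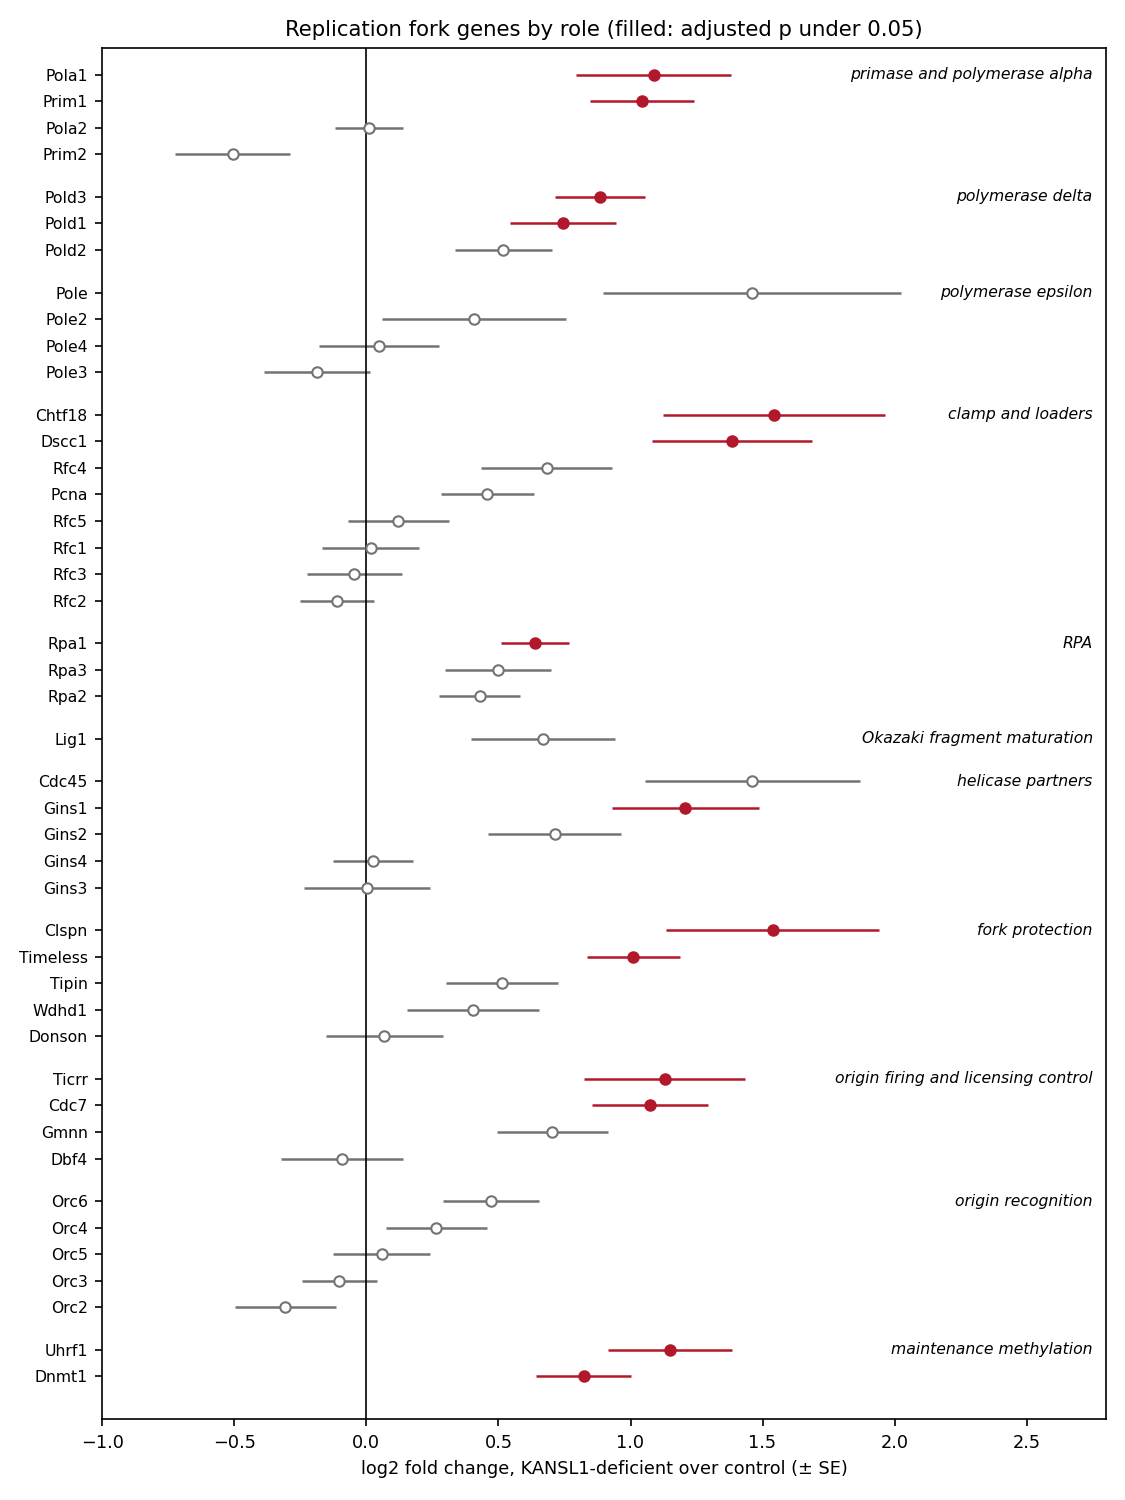
Log2 fold change (KANSL1-deficient over control, ± SE from edgeR) of the 44 tested fork genes, grouped by role; filled points passed the adjusted p threshold of 0.05. The 14 filled points lie between 0.64 and 1.54, and no filled point lies below 0.

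Of the 4 genes of polymerase alpha and primase, 2 rose. PRIM1 is the catalytic subunit of primase and PRIM2 its large subunit; POLA1 is the catalytic subunit of polymerase alpha and POLA2 its accessory subunit. Prim1 (ENSMUSG00000025395, chromosome 10 of GRCm39, 127851037 to 127865906) had 29.6, 37.3 and 31.1 CPM in KANSL1-deficient libraries, against 17.3, 16.6 and 13.6 CPM in control libraries. Every KANSL1-deficient library was above every control library, and the log2 fold change was 1.04 ± 0.20 (SE, adjusted p = 0.0112). Prim2 (chromosome 1, 33492891 to 33708876) had 23.5, 30.8 and 38.1 CPM in KANSL1-deficient libraries and 54.4, 39.3 and 37.5 CPM in control libraries. The Prim2 groups overlapped, since KANSL1-deficient replicate 3 was above control replicate 3, and its log2 change (-0.51 ± 0.22) missed the threshold (adjusted p = 0.192). Pola1 (chromosome X, 92348373 to 92675761) had 34.7, 56.0 and 50.0 CPM in KANSL1-deficient libraries, against 34.1, 15.8 and 16.4 CPM in control libraries. Control replicate 1 lay just under the lowest KANSL1-deficient library, and Pola1 rose by 1.09 ± 0.29 on the log2 scale (adjusted p = 0.0470). Pola1 passed in 4 of 12 alternatives, and with 1 library left out it passed only without control replicate 1. Pola2 averaged 105 ± 7.59 CPM in KANSL1-deficient and 105 ± 6.03 CPM in control libraries (SD, n = 3 each).

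Of the 3 genes of polymerase delta in the set, 2 rose, and none of the 4 of polymerase epsilon passed with edgeR (1 at an unadjusted p under 0.05). The difference between the polymerases was not tested. Pold3, an accessory subunit (chromosome 7, 99731318 to 99770772), had 39.8, 49.4 and 48.3 CPM in KANSL1-deficient libraries and 23.1, 26.0 and 25.4 CPM in control libraries. The groups did not overlap, and the log2 fold change was 0.88 ± 0.17 (adjusted p = 0.0128). Pold1, the catalytic subunit (chromosome 7, 44182170 to 44198273), had 38.1, 50.2 and 63.7 CPM in KANSL1-deficient libraries and 32.8, 28.7 and 29.2 CPM in control libraries (0.74 ± 0.20, adjusted p = 0.0459). Pold1 passed in 4 of 12 alternatives, and with 1 library left out it passed only without KANSL1-deficient replicate 1. The groups of Pold2, the second subunit of the core, did not overlap either, but its log2 change (0.52 ± 0.19) missed the threshold (adjusted p = 0.114). Pold4, the smallest subunit of polymerase delta and outside the set, had 63 counts in KANSL1-deficient and 140 in control libraries together, and did not pass (-1.05 ± 0.55, adjusted p = 0.294). Pole, the catalytic subunit of polymerase epsilon, was read at 9.00, 12.9 and 19.1 CPM in KANSL1-deficient libraries and at 9.92, 1.19 and 3.83 CPM in control libraries. Control replicate 1 lay inside the KANSL1-deficient range, and the log2 fold change of 1.46 had an SE of 0.56 (adjusted p = 0.145). Without that library the value was 2.42 and passed, and the gene also passed with DESeq2 as run here and without a filter. In the authors' deposited DESeq2 comparison Pole did not pass (adjusted p = 0.258). Pole2, which binds POLE directly, had 6.10, 4.43 and 5.01 CPM in KANSL1-deficient and 4.93, 3.70 and 3.08 CPM in control libraries, with overlap. Pole3 and Pole4, the histone-fold subunits, had log2 fold changes of -0.19 ± 0.20 and 0.05 ± 0.23; POLE3 is also a subunit of a chromatin remodelling complex.

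Of the 8 genes of the clamp and its loaders, Chtf18 and Dscc1 of the alternative CTF18 loader passed the threshold with edgeR. RFC1 with RFC2 to RFC5 forms the main loader of PCNA; CHTF18 and DSCC1 work with the same small subunits in a loader tied to the leading strand and to sister chromatid cohesion. Chtf18 (chromosome 17, 25937900 to 25946393) had 17.0, 13.3 and 17.0 CPM in KANSL1-deficient libraries and 6.34, 1.85 and 8.05 CPM in control libraries (log2 fold change 1.54 ± 0.42, adjusted p = 0.0486). Dscc1 (chromosome 15, 54939495 to 54953887) had 9.84, 12.0 and 12.7 CPM in KANSL1-deficient libraries, against 4.35, 3.26 and 5.59 CPM in control libraries (1.38 ± 0.30, adjusted p = 0.0206). Neither gene overlapped between the groups, and control replicate 2 was the lowest library for both. Chtf18 passed in 5 of 12 alternatives, and with 1 library left out it passed only without control replicate 3. Dscc1 passed in 6 of 12, and in 2 of the 6 fits with 1 library left out. Chtf8, a further subunit of this loader and outside the set, had 10 counts in KANSL1-deficient and 11 in control libraries and was not tested. Pcna averaged 59.0 ± 7.92 CPM in KANSL1-deficient and 42.9 ± 7.34 CPM in control libraries (SD, n = 3 each), without overlap, and did not pass (adjusted p = 0.144). Rfc4 had 35.4, 33.0 and 33.8 CPM in KANSL1-deficient libraries and 30.9, 16.8 and 16.1 CPM in control libraries, and did not pass with edgeR (adjusted p = 0.119) but did with DESeq2, without a filter and without control replicate 1. For Rfc1 the values were 84.3, 97.1 and 116 CPM in KANSL1-deficient libraries and 122, 94.8 and 76.7 CPM in control libraries. The Rfc1 values overlapped throughout, and Rfc2, Rfc3 and Rfc5 had log2 fold changes between -0.11 and 0.12.

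RPA coats single-stranded DNA at the fork. Rpa1, its large subunit (chromosome 11, 75188992 to 75239150), had 229, 247 and 206 CPM in KANSL1-deficient libraries and 143, 158 and 136 CPM in control libraries. It rose by 0.64 ± 0.13 on the log2 scale (adjusted p = 0.0144), the smallest change among the members that passed. Rpa2 had 107, 123 and 148 CPM in KANSL1-deficient libraries and 100.1, 98.3 and 82.2 CPM in control libraries. Rpa2 and Rpa3 did not overlap between the groups, with log2 fold changes of 0.43 ± 0.15 and 0.50 ± 0.20, and neither passed with edgeR (adjusted p = 0.113 and 0.162). Rpa2 passed with DESeq2 as run here (adjusted p = 0.0493), but not in the authors' deposited DESeq2 comparison (adjusted p = 0.0536). DNA ligase I, encoded by Lig1, joins Okazaki fragments after FEN1 has trimmed their flaps. Lig1 was read at 75.3, 107 and 120 CPM in KANSL1-deficient libraries and at 95.7, 53.0 and 41.4 CPM in control libraries. Control replicate 1 was above KANSL1-deficient replicate 1, and the log2 change (0.67 ± 0.27) missed the threshold (adjusted p = 0.164); without control replicate 1 it was 1.08 and passed. Fen1 had 12 counts in the KANSL1-deficient libraries together and 19 in the control libraries, too few to test. In the deposited coordinates the antisense gene Gm10143 covers 64.6% of the Fen1 span, and how the authors treated reads in shared stretches is not stated, so the Fen1 count is uncertain.

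Of the 5 helicase partners, 1 rose and 3 had an unadjusted p under 0.05. CDC45 and the 4 GINS proteins (encoded by Gins1 to Gins4) bind the MCM ring to form the active helicase. Gins1 (chromosome 2, 150747320 to 150773200) had 19.2, 23.8 and 27.7 CPM in KANSL1-deficient libraries and 13.4, 10.5 and 6.64 CPM in control libraries. It rose without overlap (log2 fold change 1.21 ± 0.28, adjusted p = 0.0248). Gins1 passed in 6 of 12 alternatives, and with 1 library left out it passed only without control replicate 1. Cdc45 had 7.03, 11.3 and 10.1 CPM in KANSL1-deficient libraries and 5.03, 3.65 and 1.63 CPM in control libraries. It lay just outside the threshold with edgeR (1.46 ± 0.41, adjusted p = 0.0522) and passed with DESeq2. Gins2 had 10.2, 12.4 and 12.3 CPM in KANSL1-deficient libraries, against 6.87, 7.88 and 6.60 CPM in control libraries, and did not pass (adjusted p = 0.112). Gins3 had 12.2, 12.1 and 14.3 CPM in KANSL1-deficient libraries and 15.7, 11.2 and 11.7 CPM in control libraries. Gins4 had 116, 109 and 117 CPM in KANSL1-deficient libraries and 111, 133 and 91.6 CPM in control libraries. Both overlapped, with log2 fold changes of 0.00 ± 0.24 and 0.03 ± 0.15, and these signs turned with library totals (-0.15 and -0.12).

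**Figure D2:**
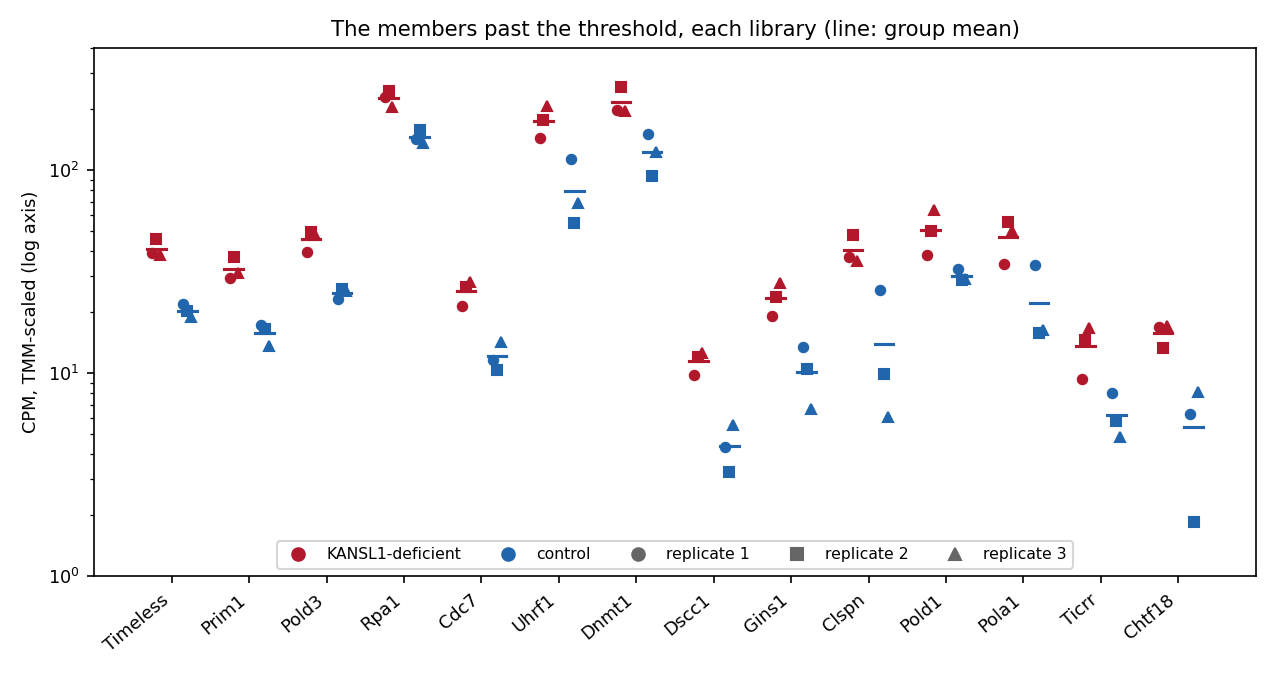
CPM (TMM-scaled, log axis) of the 14 members that passed the threshold in each library, ordered by adjusted p, with a line at each group mean; marker shapes give replicates 1 to 3. In every gene all 3 KANSL1-deficient libraries lie above all 3 control libraries, and for Clspn the control libraries spread from 6.11 to 25.7 CPM.

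Fork protection genes included the member with the smallest p of all. TIMELESS and TIPIN form a complex that travels with the fork, and claspin, encoded by Clspn, links it to checkpoint signalling. Timeless (ENSMUSG00000039994, chromosome 10, 128067934 to 128088810) had 39.2, 45.8 and 38.2 CPM in KANSL1-deficient libraries and 21.9, 20.3 and 19.0 CPM in control libraries. Both groups were tight, and the log2 fold change was 1.01 ± 0.18 (adjusted p = 0.00791). Tipin had 16.8, 20.1 and 21.1 CPM in KANSL1-deficient libraries and 14.0, 12.3 and 14.4 CPM in control libraries. The groups did not overlap, but the change of 0.51 ± 0.21 did not pass (adjusted p = 0.173). Clspn (chromosome 4, 126450728 to 126487696) had 37.4, 47.9 and 35.6 CPM in KANSL1-deficient libraries, against 25.7, 9.95 and 6.11 CPM in control libraries. It rose by 1.54 ± 0.40 (adjusted p = 0.0419), a call that DESeq2 did not make. Clspn passed in 4 of 12 alternatives, and with 1 library left out it passed only without control replicate 1. Wdhd1, which tethers polymerase alpha to the helicase, and Donson, a factor of helicase assembly, overlapped between the groups (0.40 ± 0.25 and 0.07 ± 0.22). The gene Son on the other strand overlaps 20.2% of the Donson span, so the Donson count is less certain.

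Of the origin firing genes, the kinase and TICRR rose while the activating subunit of the kinase did not pass. Cdc7 (chromosome 5, 107112188 to 107132298) had 21.5, 26.6 and 28.3 CPM in KANSL1-deficient libraries and 11.7, 10.4 and 14.3 CPM in control libraries (log2 fold change 1.07 ± 0.22, adjusted p = 0.0158). Dbf4 had 16.9, 20.8 and 14.5 CPM in KANSL1-deficient libraries and 18.6, 22.1 and 15.0 CPM in control libraries, overlapping (-0.09 ± 0.23). Ticrr (chromosome 7, 79309944 to 79347896) had 9.35, 14.6 and 16.8 CPM in KANSL1-deficient libraries and 7.98, 5.81 and 4.84 CPM in control libraries. It passed narrowly (1.13 ± 0.31, adjusted p = 0.0480). Ticrr passed in 4 of 12 alternatives, and with 1 library left out it passed only without control replicate 1. Gmnn encodes geminin, which blocks relicensing in S and G2 phase, and its change (0.70 ± 0.21, log2) missed the threshold with edgeR (adjusted p = 0.0650) and passed it with DESeq2. Among the 5 ORC genes of the set none passed the threshold with edgeR (1 at an unadjusted p under 0.05), with a median log2 fold change of 0.06. Orc6, the smallest subunit, had 49.2, 40.3 and 42.7 CPM in KANSL1-deficient libraries and 26.1, 36.7 and 32.6 CPM in control libraries (0.47 ± 0.18, adjusted p = 0.145). Orc2 was lower in every KANSL1-deficient library, with 36.6, 34.1 and 24.1 CPM against 36.9, 38.9 and 41.7 CPM in control libraries (-0.31 ± 0.19, adjusted p = 0.386). The gene Nif3l1 on the other strand overlaps 45.0% of the Orc2 span, and reads of antisense genes cannot be told apart without strand. Orc3, Orc4 and Orc5 overlapped between the groups, with log2 fold changes from -0.10 to 0.27. Orc1, the remaining ORC subunit and outside the set, rose, with 78.1, 51.2 and 57.3 CPM in KANSL1-deficient libraries and 26.9, 33.4 and 26.9 CPM in control libraries (1.10 ± 0.19, adjusted p = 0.00855).

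Both genes of maintenance methylation rose. UHRF1 recognises hemimethylated DNA behind the fork and recruits DNMT1, which copies the methylation to the new strand. Uhrf1 (chromosome 17, 56610321 to 56630486) had 144, 176 and 207 CPM in KANSL1-deficient libraries and 114, 55.1 and 69.3 CPM in control libraries. Dnmt1 (chromosome 9, 20818505 to 20871184) had 198, 258 and 196 CPM in KANSL1-deficient libraries, against 152, 94.1 and 123 CPM in control libraries. Neither overlapped between the groups, and the log2 fold changes were 1.15 ± 0.23 and 0.82 ± 0.18 (adjusted p = 0.0159 and 0.0206). Control replicate 1 was the highest control library for both. Uhrf1 passed in 8 and Dnmt1 in 6 of 12 alternatives, and each in 2 of the 6 fits with 1 library left out.

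Pairs of members from 1 complex or 1 step were compared within each library as ratios of read counts, which no scaling between libraries changes. Of 16 pairs compared, 7 did not overlap between the groups. The same count for ratios of other genes was not made; of single genes, 28.5% did not overlap. The Prim1 to Prim2 ratio was 1.26, 1.21 and 0.817 in KANSL1-deficient libraries and 0.318, 0.423 and 0.363 in control libraries, a difference of 1.56 on the log2 scale. The Gins1 to Gins4 ratio was 0.166, 0.218 and 0.238 in KANSL1-deficient libraries and 0.121, 0.0793 and 0.0725 in control libraries (difference 1.21). These were the largest shifts upward among the pairs. The Dbf4 to Cdc7 ratio was 0.785, 0.782 and 0.512 in KANSL1-deficient libraries, against 1.60, 2.13 and 1.05 in control libraries (difference -1.17). The other pairs without overlap were Orc6 to Orc2 (difference 0.81), Gins2 to Gins3 (0.70), Rfc1 to Rfc4 (-0.72) and Tipin to Timeless (-0.50). For each of the 7 the exact two-sided permutation test gave p = 0.1, the smallest value that 3 against 3 libraries allow, and an adjusted p of 0.229 over the 16 pairs.

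**Figure D3:**
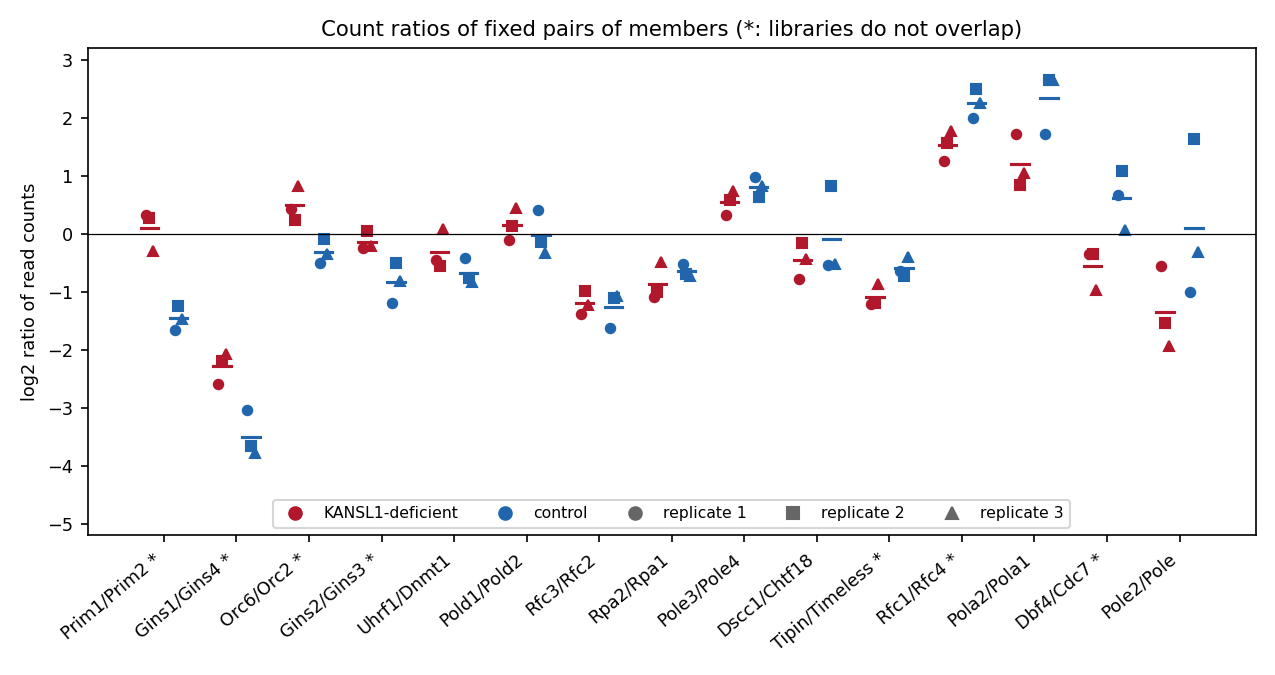
Log2 ratio of read counts within each library for 15 pairs of members (Fen1 to Lig1, with few Fen1 counts, is left out), with a line at each group mean; an asterisk marks pairs whose libraries do not overlap. The Prim1 to Prim2 ratio averaged 0.11 ± 0.34 in KANSL1-deficient and -1.45 ± 0.20 in control libraries (log2, SD, n = 3 each).

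Levels between genes were compared per length, with the authors' FPKM. Gins4 was the most abundant member, at 79.9 ± 3.80 FPKM in KANSL1-deficient and 87.0 ± 15.1 FPKM in control libraries, whereas Gins2 of the same complex stood at 2.70 ± 0.329 and 1.83 ± 0.149 FPKM (SD, n = 3 each). Likewise Pole3 averaged 30.3 ± 7.07 FPKM in KANSL1-deficient and 38.2 ± 7.62 FPKM in control libraries, and Pole 1.17 ± 0.458 and 0.473 ± 0.430 FPKM. Messages of proteins that join in 1 complex thus differed widely in level in both genotypes. The Gins2 level is less certain, since the gene Gse1 on the other strand overlaps 25.8% of its span. The members that rose had a median of 7.19 FPKM in KANSL1-deficient and 3.91 FPKM in control libraries. Those that did not pass had medians of 11.0 FPKM in KANSL1-deficient and 11.5 FPKM in control libraries. When the 44 members were ordered by their mean FPKM over all libraries, 10 of the 22 less abundant and 4 of the 22 more abundant ones rose, with median log2 fold changes of 0.81 and 0.44. This split was not made for all tested genes, of which 3.85% rose at any level. The mean used for the order includes the KANSL1-deficient libraries, and a link between level and change was not tested.

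**Figure D4:**
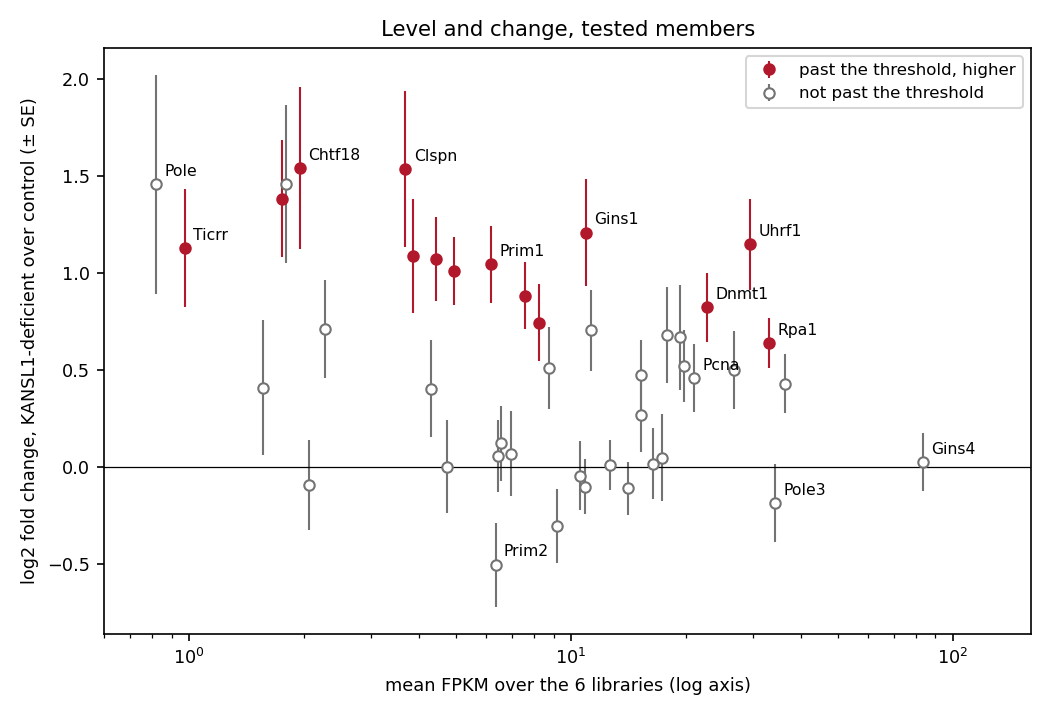
Mean FPKM over the 6 libraries (log axis) against the log2 fold change (KANSL1-deficient over control, ± SE) of the 44 tested members; filled points passed the threshold. Gins4, the most abundant member, lies near 0 (0.03), and Rpa1, Uhrf1, Dnmt1 and Gins1 are the 4 of the 22 more abundant members that rose.

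The libraries of a group were not alike. Mean log2 CPM of the 14 genes that rose, relative to the control mean, was 0.90, 1.21 and 1.19 in KANSL1-deficient replicates 1 to 3, and 0.29, -0.21 and -0.09 in control replicates 1 to 3. The 14 were picked by their rise in these libraries, so the gap between the groups follows from that choice. For all 44 tested members the values were 0.45, 0.61 and 0.60 in KANSL1-deficient and 0.16, -0.07 and -0.09 in control replicates. Control replicate 1 thus lay above the other controls for the 14 genes and for all 44, and it was the highest control library for 23 of the 44 members. All 20 genes of a mitosis list rose in KANSL1-deficient cells, beside 3.85% of all tested genes. The mitosis list placed the libraries at 1.80, 1.92 and 2.05 in KANSL1-deficient and at 0.56, -0.29 and -0.27 in control replicates. For 8 genes of deoxynucleotide synthesis, of which 6 rose, the values were 0.81, 1.03 and 1.11 in KANSL1-deficient and 0.34, -0.10 and -0.24 in control replicates. The part of these lists in the change of the fork genes was not tested, and in bulk RNA more cycling cells and more RNA per cell cannot be told apart. Spread within a group was larger among controls than among KANSL1-deficient libraries for 29 of the 44 members, beside 59.0% of all tested genes. It was widest for Pole, Clspn and Chtf18, whose control libraries lay at 1.19 to 9.92, 6.11 to 25.7 and 1.85 to 8.05 CPM.

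**Figure D5:**
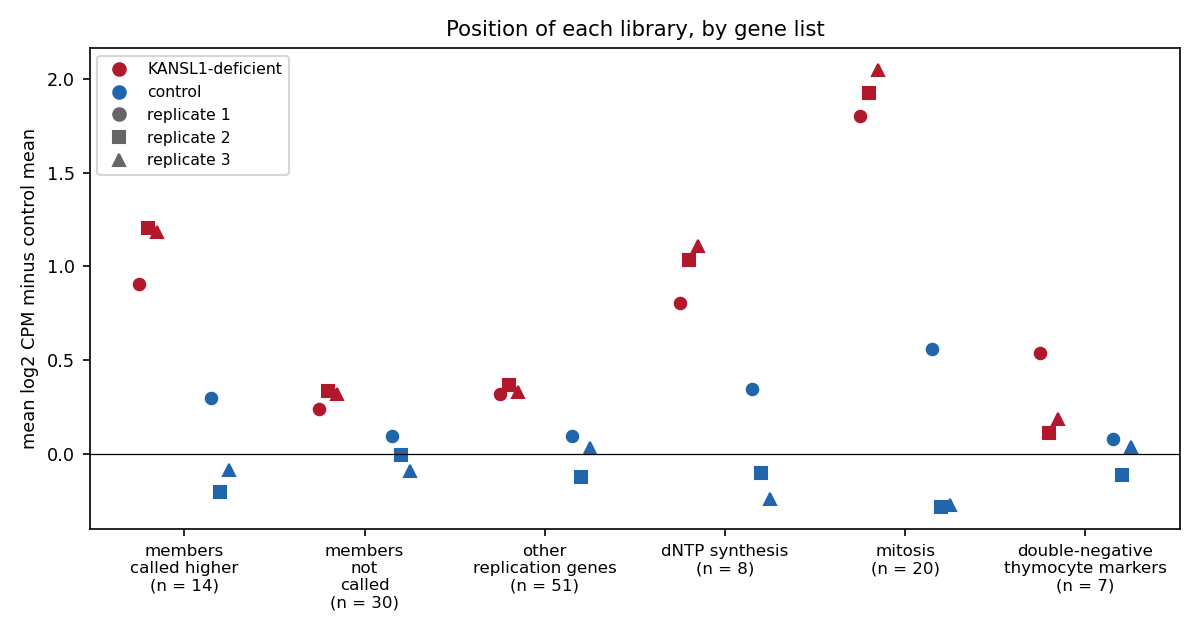
Mean log2 CPM of each gene list in each library, minus the mean of the control libraries; n is the number of tested genes, and marker shapes give replicates 1 to 3. Control replicate 1 is the highest control library for the genes that rose (0.29), deoxynucleotide synthesis (0.34) and mitosis (0.56).

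Markers of other cells were examined in the same libraries. The 8 markers of double-negative or immature thymocytes summed to 158 to 191 CPM in KANSL1-deficient and 114 to 139 CPM in control libraries, 0 of 7 tested passed (1 at an unadjusted p under 0.05), and none was at 0 in all libraries. Of the 7 tested, 6 had a positive log2 fold change, with a median of 0.42. The one with an unadjusted p under 0.05 was the receptor gene Notch1, with 70.1, 62.9 and 63.2 CPM in KANSL1-deficient and 52.7, 35.0 and 50.4 CPM in control libraries (0.51 ± 0.18, adjusted p = 0.107). Markers of B cells summed to 40.3 to 55.7 CPM in KANSL1-deficient and 42.3 to 61.1 CPM in control libraries, nearly all of it Cd79b. Those of macrophages and dendritic cells (7.97 to 12.9 and 9.29 to 14.4 CPM), erythroid cells (3.16 to 5.16 and 3.47 to 8.03 CPM) and thymic epithelium (8.34 to 12.2 and 7.26 to 9.96 CPM) were low in KANSL1-deficient and control libraries, in that order. CD4 single-positive markers summed to 41.7 to 55.0 CPM in KANSL1-deficient and 29.9 to 38.3 CPM in control libraries, with Zbtb7b at 1 and 0 counts. Of these markers 3 were tested and 0 passed (1 at an unadjusted p under 0.05), with 2 positive and 1 negative log2 fold changes. CD8 single-positive markers summed to 15.1 to 17.6 CPM in KANSL1-deficient and 23.5 to 27.6 CPM in control libraries, nearly all of it Runx3. Runx3 was the only 1 of these 4 genes tested, and it did not pass with edgeR (-0.69 ± 0.19, log2, adjusted p = 0.0522). The part of other cell types in the change of the fork genes was not tested.

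Other genes of replication were counted for comparison. Of 52 such genes outside the members, 51 were tested, with a median log2 fold change of 0.20. None fell with edgeR (3 lower at an unadjusted p under 0.05, and 1 lower with DESeq2), beside 2.91% of all tested genes. In the same edgeR fit 13 rose, beside 3.85% of all tested genes. Those with the smallest p were the licensing factor Cdc6 (87.7, 102 and 82.6 CPM in KANSL1-deficient libraries, against 39.2, 24.7 and 30.0 CPM in control libraries), Mcm10, Mcm7, Asf1b, Chaf1a and Mcm5. Mcm10, which acts when the helicase is activated, had 29.9, 34.7 and 39.8 CPM in KANSL1-deficient libraries and 10.5, 2.95 and 6.47 CPM in control libraries, a log2 fold change of 2.39 ± 0.36 (adjusted p = 0.00529). Chaf1a and Asf1b, which deliver histones behind the fork, rose by 1.70 ± 0.28 and 1.45 ± 0.23. The helicase genes Mcm7 and Mcm5 rose by 0.79 ± 0.12 and 0.92 ± 0.16. The authors' deposited table gives 16 of the 45 members an adjusted p under 0.05, all higher in KANSL1-deficient cells, and 13 of these are among the 14 above. Only 10 members carry the authors' own mark of significance with a higher value. The share of all genes passing in the authors' comparison was not counted.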

How the data were processed

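Group and replicate number come from each sample's label. The submitters' processing notes name STAR, featureCounts and DESeq2 with GRCm39, without versions; strand handling is not stated. RNA was poly(A)-selected, per the labels' protocols. The authors deposited whole-number read counts per gene, and a second table of FPKM. The authors' deposited comparison holds a baseline signal (mean normalized count), fold ratio, log2 fold change, p-value and adjusted p-value for each gene.

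Counts were tested in R 4.3.3 with edgeR 4.0.16 (quasi-likelihood test, TMM, minimum count 10 by group and minimum total 15, robust shrinkage, Benjamini-Hochberg over all 15353 genes passing the filter, threshold 0.05), without pairing. SE values are the absolute log2 fold change over the root of F. Same-numbered mice did not deviate together (r = -0.05, -0.02 and -0.10), and each pair of libraries of a group differed by more than counting noise. Means per library and spreads on the log2 scale used CPM plus 0.5. Also tried were median-of-ratios (RLE) scaling, scaling to library totals, no filter, DESeq2 1.42.0, limma 3.58.1 on log2(FPKM + 1), a replicate block and each library left out. On simulated counts for 14759 genes at these depths the test recovered 11 of 67 genes at a true 1.5-fold change, 55 of 67 at 2-fold and 64 of 66 at 4-fold. It called 5 of 14559 unchanged genes. The changed genes were drawn from those with a mean CPM of at least 5, and were fewer than the genes that passed in the data.

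The members and lists were chosen with earlier results of these data known. Values per library are given for members past the threshold, for those with the smallest p in role groups with fewer than 2 of these, and for pairs of members whose ratio did not overlap; of other replication genes, up to 6 with the smallest p are named. Any member may be named. Orc1, Pold4, Chtf8 and Notch1 are named outside this rule, after their values were seen. Coordinates of genes are GRCm39, from the deposited table, and those of promoters GRCm38.p6. Protein sequences were not analysed here.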

Additional observations from a re-analysis of the deposited data

How the results depend on the processing

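Rises were not called under every choice, and the cause was not tested. The count of fork genes that rose (14) was 9 with library totals, 8 with the replicate block and 6 with limma on log2(FPKM + 1). With 1 library left out it was 0 to 16. All tested genes that rose (591) were 367 with library totals, 242 with the replicate block and 300 with limma. They were 169 to 447 with 1 library left out. The median of the members (0.51) was 0.36 with library totals and 0.34 with limma, and all genes past the threshold (1038) were 1729 without a filter, 406 with the replicate block, 2040 with DESeq2 and 283 to 811 with 1 library left out. Equal replicate numbers mark no shared litter or day in the labels, so the replicate block is only another fit. Other replication genes that rose (13) were 8 with limma and 8 to 14 with 1 library left out; 1 fell without a filter and 1 with DESeq2.

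Values near 0 changed sign. With library totals and with limma on FPKM, the log2 fold changes were -0.082 and -0.079 for Donson, -0.15 and -0.11 for Gins3, -0.12 and -0.11 for Gins4, and -0.093 and -0.075 for Orc5. They were -0.14 and -0.13 for Pola2, -0.10 and -0.074 for Pole4, -0.13 and -0.11 for Rfc1, and -0.033 and -0.015 for Rfc5. Without a filter Gins3 was at -0.0070 and Pola2 at -0.00097. With 1 library left out the ranges were -0.24 to 0.032 for Dbf4, -0.12 to 0.18 for Donson, -0.11 to 0.16 for Gins3, -0.11 to 0.15 for Gins4, -0.085 to 0.13 for Orc5 and -0.049 to 0.050 for Pola2. They were -0.18 to 0.16 for Pole4, -0.14 to 0.20 for Rfc1 and -0.17 to 0.052 for Rfc3. The log2 ratio ranged from -0.60 to 0.080 for Dscc1 to Chtf18 and from -0.10 to 0.17 for Rfc3 to Rfc2. Timeless, Prim1 and Pold3 passed in 11 of 12 alternatives each, and failed without KANSL1-deficient replicate 2. Rpa1 and Cdc7 passed in 9 of 12 each, and in 4 and 3 of the 6 fits with 1 library left out. On the simulated counts, changes of 1.5-fold were mostly missed. Far fewer genes were changed in that simulation than passed in these data, so the share missed here can differ and was not measured.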
